A study of Mus musculus with 8 samples.

Results

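The report concerns 50 genes of mitosis and cytokinesis, chosen by gene name. They run from the kinase and cyclins that start mitosis, through the checkpoint, kinetochore and spindle, to the proteins that part the daughter cells. All 50 were on the array, out of 25830 genes tested in the series. Each of the 50 was above background on both mice of at least 1 group, and 45 were above background on all 8 arrays.

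The series profiled whole lungs of male bone marrow chimeras, 22 weeks old, taken 72 hours after diphtheria toxin. Groups are named by marrow donor and then recipient. LL held LysM-DTR marrow in LysM-DTR recipients, WL held wild-type marrow in LysM-DTR recipients, LW held LysM-DTR marrow in wild-type recipients, and WW was wild type on both sides. There were 2 mice and 2 arrays in each of the 4 groups, and all 8 mice, WW included, were chimeras given the toxin, so no group shows an untreated lung. LysM-DTR mice express the receptor for diphtheria toxin from the promoter of lysozyme M, which makes the expressing cells sensitive to the toxin. That promoter is active in myeloid cells and also in alveolar type 2 cells, so it is not specific to 1 cell type, and recipient cells that outlive the transplant are not separated from donor cells in a whole lung.

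In mitosis, CDK1 bound to cyclin B starts chromosome condensation and spindle assembly, the kinetochore links chromosomes to spindle microtubules, and the checkpoint holds the anaphase-promoting complex (APC/C) inactive until every chromosome is attached. The APC/C with CDC20 then marks securin and cyclin B for destruction, separase opens cohesin, and the central spindle places the contractile ring that divides the cell. Most of these genes are transcribed late in the cell cycle, when MuvB with B-MYB and FOXM1 takes the place of the DREAM complex at the promoter element named CHR (cell cycle genes homology region), and many of their promoters also hold CCAAT boxes, which NF-Y binds. In the adult lung few cells divide at rest, and alveolar type 2 cells, endothelial cells, fibroblasts and macrophages can all enter the cycle after injury.

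Promoters are shown because many members share these elements. RefSeq promoters on GRCm38.p6, 300 bases each with 250 before the annotated start and 50 after it, were matched by symbol for 41 of the 50 genes (43 promoters), and 9 genes had no promoter in the table. The CHR was searched as TTTGAA or TTCGAA on both strands, and the CCAAT box as CCAAT on both strands. A CHR match was present in 32 of the 43 promoters (74.4%), against 19.2% of all 32851 promoters of the same length. A CCAAT match was present in 31 of them (72.1%), against 37.4% of all promoters, and both together in 28 (65.1%), against 7.52%. In 41 promoters of other mitotic genes, 58.5% held a CHR match, 68.3% a CCAAT match, and 16 held both. Within 50 bases of the start on either side, 69.8% of the members' promoters held a CHR match, against 5.31% of all promoters. The 6 promoters below belong to the members with the smallest p in the recipient comparison that have a CHR match. They read 5′ to 3′ on the strand of the gene, with CHR and CCAAT matches in capitals; where the letters of both overlap, as in Cdca8, the capitals run together.
Cdc20: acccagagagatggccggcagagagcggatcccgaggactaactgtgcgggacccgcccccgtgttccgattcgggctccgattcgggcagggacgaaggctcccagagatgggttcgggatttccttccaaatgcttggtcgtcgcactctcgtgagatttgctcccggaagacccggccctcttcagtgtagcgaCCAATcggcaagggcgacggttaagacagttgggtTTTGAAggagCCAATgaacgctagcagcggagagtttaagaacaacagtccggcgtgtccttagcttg
Kif2c: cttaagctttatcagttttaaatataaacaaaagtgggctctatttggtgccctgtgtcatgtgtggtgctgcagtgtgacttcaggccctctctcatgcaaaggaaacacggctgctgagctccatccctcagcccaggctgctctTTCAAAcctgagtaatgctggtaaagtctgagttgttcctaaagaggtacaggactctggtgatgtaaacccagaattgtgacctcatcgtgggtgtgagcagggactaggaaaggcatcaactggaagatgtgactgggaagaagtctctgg
Prc1: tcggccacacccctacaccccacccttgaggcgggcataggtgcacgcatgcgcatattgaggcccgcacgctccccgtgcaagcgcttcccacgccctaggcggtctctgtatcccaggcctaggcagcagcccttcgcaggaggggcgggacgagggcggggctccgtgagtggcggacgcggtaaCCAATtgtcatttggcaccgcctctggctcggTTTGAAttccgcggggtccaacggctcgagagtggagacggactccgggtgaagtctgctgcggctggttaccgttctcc
Kif4: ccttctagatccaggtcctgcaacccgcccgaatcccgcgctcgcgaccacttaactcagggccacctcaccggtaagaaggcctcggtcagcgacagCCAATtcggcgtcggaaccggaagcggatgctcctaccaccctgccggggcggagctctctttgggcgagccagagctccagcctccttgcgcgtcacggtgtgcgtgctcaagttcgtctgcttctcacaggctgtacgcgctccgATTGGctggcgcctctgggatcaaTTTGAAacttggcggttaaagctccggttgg
Cdca8: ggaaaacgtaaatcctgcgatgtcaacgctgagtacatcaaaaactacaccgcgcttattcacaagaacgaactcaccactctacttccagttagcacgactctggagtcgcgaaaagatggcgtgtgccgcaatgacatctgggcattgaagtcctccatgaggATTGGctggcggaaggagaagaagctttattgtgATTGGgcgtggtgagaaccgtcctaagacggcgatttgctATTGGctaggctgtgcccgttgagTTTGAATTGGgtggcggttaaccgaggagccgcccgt
Ube2c: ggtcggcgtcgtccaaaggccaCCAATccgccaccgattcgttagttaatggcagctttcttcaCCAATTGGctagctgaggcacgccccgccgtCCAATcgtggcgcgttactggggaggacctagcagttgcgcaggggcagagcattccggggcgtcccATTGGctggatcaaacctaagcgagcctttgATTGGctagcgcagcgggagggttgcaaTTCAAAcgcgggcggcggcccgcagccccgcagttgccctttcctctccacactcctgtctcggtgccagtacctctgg
The CHR match began at -18 in Cdc20, -103 in Kif2c, -30 in Prc1, 20 in Kif4, 14 in Cdca8 and -29 in Ube2c, counted from the annotated start, with -1 the base before it. Ube2c held 6 CCAAT matches and Cdca8 held 4, while Kif2c held none. Kif2c is among the 6 by a p that rests on LW and WW values not well above background. The promoters are at chr4:118437294-118437593 (Cdc20, minus strand), chr4:117178723-117179022 (Kif2c, minus), chr7:80294226-80294525 (Prc1, plus), chrX:100625815-100626114 (Kif4, plus), chr4:124936868-124937167 (Cdca8, minus) and chr2:164769679-164769978 (Ube2c, plus). A match is a description of the letters and not a site of binding, and these arrays did not measure binding. Only the promoter shown was read for Kif2c, and whether it marks the main start of that gene was not examined.

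Levels below are log2 signals relative to the 75th percentile of the same array, so that 0 is the 75th percentile, and they are compared between groups for the same probe only. Differences were tested with limma on all 8 arrays with Benjamini-Hochberg adjustment over the 25830 genes, and a gene is called at an adjusted p under 0.05. The recipient comparison sets the 4 LysM-DTR recipients (LL and WL) against the 4 wild-type recipients (LW and WW). The LysM-DTR recipients shared a slide column and the wild-type recipients the other one, so recipient genotype and slide column cannot be told apart, nor can donor genotype and place along the column.

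Most genes of mitosis and cytokinesis were higher in the lungs of LysM-DTR recipients, and their median lay above the wild-type recipients on all LL and WL arrays. In whole lung, more dividing cells and more RNA of these genes per cell cannot be told apart. The recipient comparison called 40 of the 50 higher and 0 lower, where 0.627% of all genes were called higher; at an unadjusted p under 0.05, 45 were higher, where 15.6% of all genes were. By adjusted p, the members made up 40 of the 162 genes so called. The median difference over the 50 was 1.53 on the log2 scale (2.88-fold), against -0.01 over all genes tested. Without Kif2c and Fam83d, which passed the filter through the LL and WL arrays only, 38 of 48 were called. At an unadjusted p under 0.05 by limma, 43 of these 48 were higher. In 45 of the 50, or 43 of 48 without Kif2c and Fam83d, every LL and WL array lay above every LW and WW array. This held for 8.72% of all genes. The other 5 of the 50 were Cdc25b, Kif11, Kif23, Ndc80 and Pttg1. With a normexp background correction the median was 0.88 and 29 were called, and with no filter on dim probes 25 were called. The calls also needed every LL, LW and WW array: leaving out any 1 of these 6 gave 0 calls, with smallest adjusted p from 0.0544 to 0.117, while 48 of 50 differences stayed above 0 and 45 to 46 had an unadjusted p under 0.05.

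**Figure D1:**
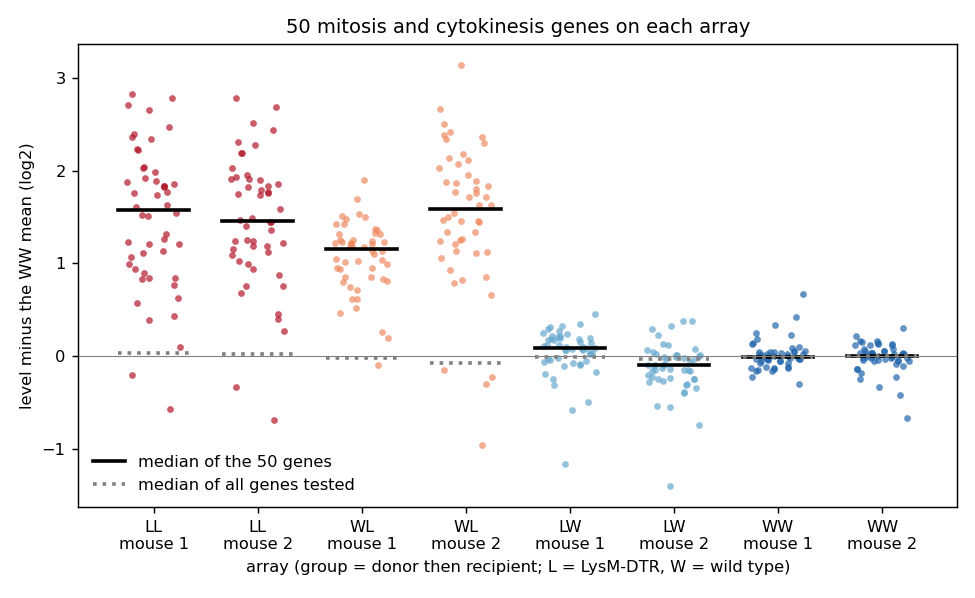
Level of each of the 50 genes minus its WW mean (log2, vertical axis) on each of the 8 arrays (horizontal axis); each point is a gene, the black bar is the median of the 50 and the dotted grey bar the median of all genes tested. The medians are 1.57 and 1.46 in LL and 1.15 and 1.59 in WL, against 0.09 and -0.1 in LW and -0.01 and 0.01 in WW.

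In LL against WW, where both donor and recipient differ, 36 of the 50 genes were called higher and 0 lower, where 1.21% of all genes were called higher. Without Kif2c and Fam83d, 34 of 48 were called higher. The median difference over the 50 was 1.52, against 0.03 over all genes. With no filter on dim probes 17 were called. With both WL arrays left out of the fit, 43 were called higher (41 of 48 without Kif2c and Fam83d), where 17.3% of all genes were. In that fit Pttg1 was called lower, where 14.8% of all genes were. The count fell to 0 without LL replicate 1 or without either WW array, to 1 without LL replicate 2 and to 6 without either LW array. Of the 36, 35 were also called in the recipient comparison, which shares the LL and WW arrays; Plk4 was called in LL against WW alone, and Aunip, Ccnf, Cenpa, Espl1 and Ttk in the recipient comparison alone.

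In WL against WW, where the recipient alone differs, the median difference was 1.42 and 47 of 50 genes were above 0. Over all 25830 genes the median was -0.05, and 11644 were above 0. No gene of the 50 was called higher (0.0% of all genes were), and the smallest adjusted p was 0.107, for Cdc20. At an unadjusted p under 0.05 by limma, 45 of the 50 were higher, where 3.16% of all genes were. Without Kif2c and Fam83d, 43 of 48 were. Limma with a trended and robust variance also called 0 at an adjusted p under 0.05. The 2 WL mice differed more than any other pair: over all genes their correlation was 0.960, against 0.990 to 0.992 in the other groups, and the median absolute difference over the 50 was 0.57, against 0.1 in LL, 0.22 in LW and 0.11 in WW. Both WL mice nonetheless lay above the wild-type recipients. In WL replicate 1, 48 of the 50 were above every LW and WW array, where 20.3% of all genes were. In WL replicate 2, 45 were, where 37.0% of all genes were. Leaving out Kif2c and Fam83d, the counts were 46 and 43 of 48. Replicate 2 had the higher value in 43 of the 50, where 47.2% of all genes were higher in it. A total of 31 genes were at least 1 log2 unit above the WW mean in both WL mice, as were 0.619% of all genes. That held for 29 of 48 without Kif2c and Fam83d. Without WL replicate 1 the median difference in WL against WW was 1.59, and without replicate 2 it was 1.15.

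In LW against WW, where only the marrow differed, 0 of the 50 were called higher (0.0465% of all genes were) and 0 lower, by limma with either variance model. The median difference was -0.03, and 21 of the 50 lay above 0 and 29 below. Of all 25830 genes, 11585 lay above 0 and 14245 below. At an unadjusted p under 0.05 by limma, none of the 50 was higher and Ttk was lower, where 171 of all genes were higher and 398 lower. Ttk was not well above background on either LW array. LL against WL, where the marrow differed in LysM-DTR recipients, also called 0 of the 50 (0.573% of all genes were called higher), with a median of 0.14. At an unadjusted p under 0.05 by limma, 1 of the 50 was higher and 1 lower. Of all 25830 genes, 2163 were higher and 1594 lower at that threshold. Both LL arrays lay above both WL arrays in 12 of the 50, or 24.0%, where 23.5% of all genes did. This comparison rests on the WL pair: without WL replicate 2 the median was 0.31, and without replicate 1 it was -0.05. The interaction, which tests whether the recipient difference depends on the donor, called 0 of the 50 (0.00387% of all genes were called higher). At an unadjusted p under 0.05 by limma, 1 of the 50 was higher and 1 lower, where 1436 of all 25830 genes were higher and 924 lower. Side by side, the recipient difference had a median of 1.62 with LysM-DTR marrow (LL minus LW) and 1.42 with wild-type marrow (WL minus WW).

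**Figure D2:**
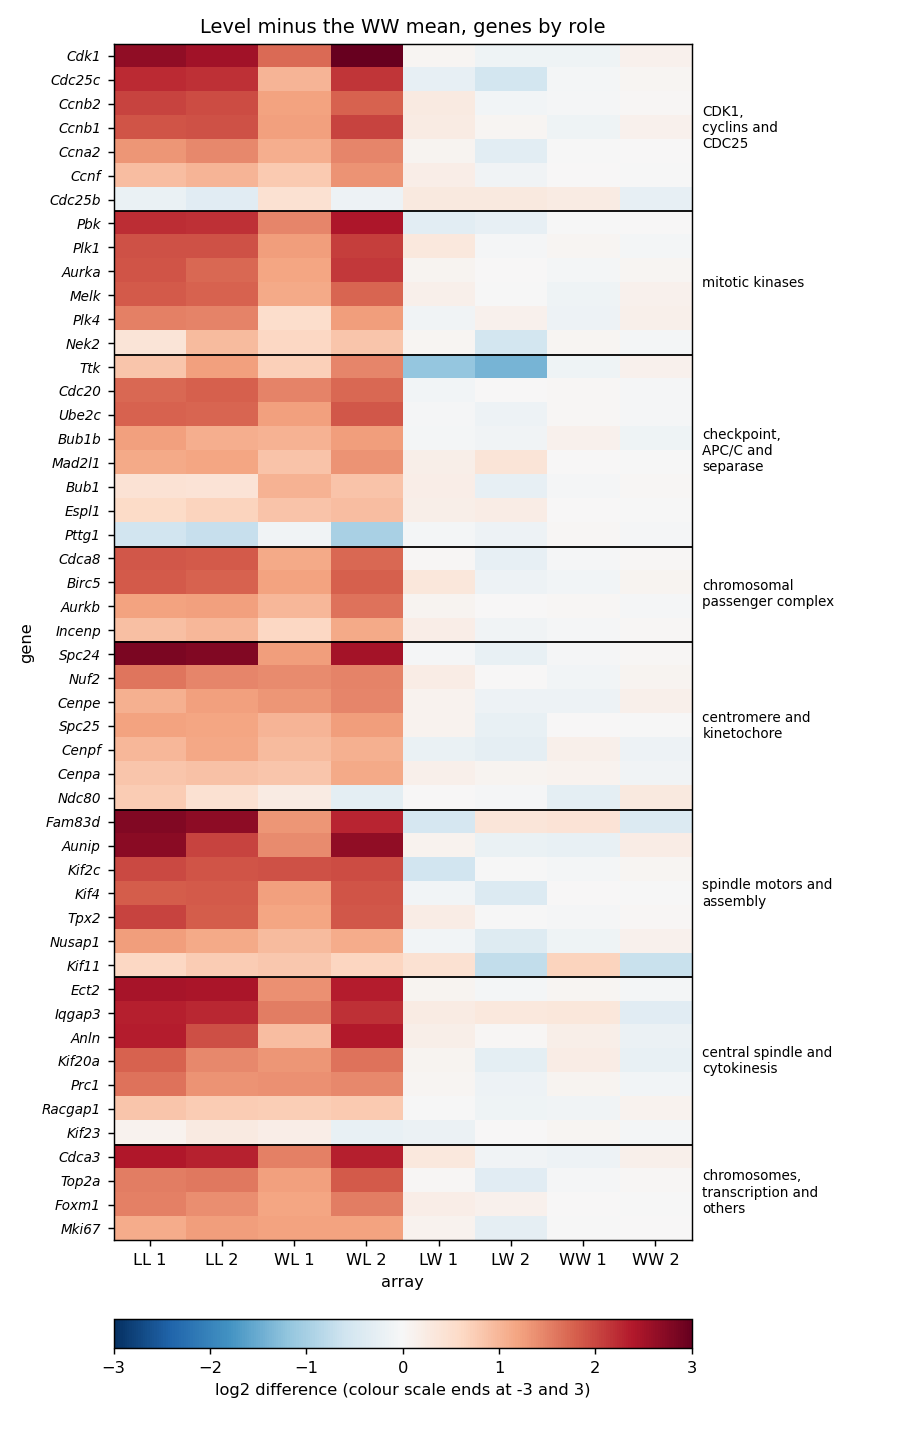
Level minus the WW mean (colour, log2, ending at -3 and 3) for the 50 genes in rows, grouped by role and ordered by recipient difference, on the 8 arrays in columns. The LL and WL columns are red in nearly every row and the LW and WW columns pale; Pttg1, at -0.57 and -0.69 in LL and -0.1 and -0.96 in WL, is blue in LL and WL replicate 2, and Ttk is blue on both LW arrays.

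Among CDK1, its cyclins and the CDC25 phosphatases that activate it, 6 of 7 genes rose in LysM-DTR recipients and Cdc25b did not pass the test. Cdk1, the kinase that drives mitotic entry, stood at -1.26 and -1.39 in LL and -2.21 and -0.77 in WL, against -3.84 and -4.04 in LW and -4.03 and -3.77 in WW. The recipient difference was 2.52 ± 0.31 (SE, adjusted p = 0.0303), the highest of the 50, and the LL and WL values did not overlap the others. Ccnb1, the cyclin B1 partner of CDK1, was at 0.4 and 0.44 in LL and -0.25 and 0.56 in WL, against -1.23 and -1.41 in LW and -1.6 and -1.35 in WW. Every LysM-DTR recipient was above every wild-type recipient, and the difference of the means was 1.68 ± 0.2 (SE, adjusted p = 0.0271). Ccnb2, its cyclin B2 counterpart, measured 1.58 and 1.51 in LL and 0.78 and 1.32 in WL, against -0.17 and -0.53 in LW and -0.47 and -0.41 in WW. Its difference was 1.69 ± 0.16 (SE, adjusted p = 0.0205). Ccna2, cyclin A2, which acts from S phase into early mitosis, read 0.55 and 0.67 in LL and 0.33 and 0.69 in WL, against -0.69 and -1.08 in LW and -0.79 and -0.75 in WW. It rose by 1.39 ± 0.14 (SE, adjusted p = 0.0221). Cdc25c, a phosphatase that removes the inhibitory phosphates from CDK1, stood at -1.49 and -1.53 in LL and -2.71 and -1.58 in WL, against -3.97 and -4.26 in LW and -3.78 and -3.67 in WW. It stayed low in both wild-type recipient groups and rose by 2.09 ± 0.25 (SE, adjusted p = 0.0277). Cdc25b, which acts on CDK1 at the onset of mitosis, was at -1.55 and -1.69 in LL and -0.89 and -1.5 in WL, against -1.06 and -1.06 in LW and -1.1 and -1.59 in WW. The groups overlapped, and the difference of -0.2 ± 0.18 (SE, adjusted p = 0.451) did not pass the test; its second probe, above background on 5 arrays, differed by -0.92. Ccnf, an F-box cyclin that directs protein destruction, measured 0.87 and 0.96 in LL and 0.73 and 1.28 in WL, against 0.13 and -0.16 in LW and -0.04 and -0.08 in WW. By this probe it rose by 1.0 ± 0.15 (SE, adjusted p = 0.0463), but its other kept probes differed by -0.42 and -0.01.

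Of 6 mitotic kinases, Pbk, Melk, Plk1 and Aurka rose, and Plk4 and Nek2 did not pass the test. Pbk, a kinase of dividing cells, read -0.82 and -0.85 in LL and -1.57 and -0.62 in WL, against -3.35 and -3.29 in LW and -3.05 and -3.03 in WW. All 4 LysM-DTR recipients were above the wild-type recipients, and the difference was 2.21 ± 0.21 (SE, adjusted p = 0.0205). Melk, a kinase expressed in proliferating and progenitor cells, stood at -0.81 and -0.88 in LL and -1.51 and -0.89 in WL, against -2.49 and -2.67 in LW and -2.77 and -2.52 in WW. It rose by 1.59 ± 0.17 (SE, adjusted p = 0.0221). Plk1, the polo-like kinase that acts from mitotic entry to cytokinesis, was at 1.5 and 1.49 in LL and 0.83 and 1.65 in WL, against -0.1 and -0.45 in LW and -0.37 and -0.47 in WW. The groups were apart here too, by 1.72 ± 0.2 (SE, adjusted p = 0.0273). Aurka, which matures the spindle poles, rose by 1.71 ± 0.21 (SE, adjusted p = 0.0303). Plk4, which starts centriole duplication, differed by 1.19 ± 0.19 (SE, adjusted p = 0.0516), just short of the threshold, and Nek2, which separates centrosomes, by 0.81 ± 0.19 (SE, adjusted p = 0.0906); neither overlapped between recipients.

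Of 8 genes of the checkpoint, the APC/C and separase, 6 rose (5 of 7 without Ttk, which was dim in LW), Bub1 did not pass the test, and Pttg1 was lower without passing it. Cdc20, the activator of the APC/C in mitosis, measured 2.02 and 2.08 in LL and 1.79 and 2.01 in WL, against 0.22 and 0.3 in LW and 0.32 and 0.26 in WW. The spread within each group was small beside the difference of 1.7 ± 0.1 (SE, adjusted p = 0.0181). Ube2c, the E2 enzyme that supplies ubiquitin to the APC/C, read 0.57 and 0.56 in LL and 0.05 and 0.69 in WL, against -1.22 and -1.33 in LW and -1.14 and -1.23 in WW. It rose by 1.7 ± 0.16 (SE, adjusted p = 0.0205). Bub1b, a checkpoint protein that holds CDC20, stood at -2.29 and -2.42 in LL and -2.47 and -2.27 in WL, against -3.58 and -3.61 in LW and -3.38 and -3.65 in WW. It rose by 1.19 ± 0.11 (SE, adjusted p = 0.0205). Ttk, the kinase that recruits the checkpoint to kinetochores, was at -3.12 and -2.72 in LL and -3.25 and -2.51 in WL, against -5.13 and -5.37 in LW and -4.11 and -3.83 in WW. It was not well above background on either LW array, so over LW the signal was at least 3.14-fold higher in LL (means -2.92 in LL and -5.25 in LW) and at least 3.24-fold higher in WL (mean -2.88); over WW, where it was measured, the differences of 1.04 in LL and 1.08 in WL were not called. The recipient call for Ttk (adjusted p = 0.0277) thus rests on LW values that were not well above background. Mad2l1, which inhibits CDC20, rose by 0.99 ± 0.14 (SE, adjusted p = 0.038), and Espl1, which is separase, by 0.66 ± 0.09 (SE, adjusted p = 0.038). Bub1, a checkpoint kinase, measured -2.17 and -2.2 in LL and -1.57 and -1.75 in WL, against -2.41 and -2.85 in LW and -2.63 and -2.57 in WW. The LysM-DTR recipients were higher in all 4 arrays, but the difference of 0.69 ± 0.13 (SE, adjusted p = 0.0672) did not pass the test, and a second probe, above background on 7 arrays, differed by -0.84.

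Pttg1, securin, the inhibitor of separase and a target of the APC/C, read 4.11 and 4.0 in LL and 4.59 and 3.72 in WL, against 4.63 and 4.52 in LW and 4.72 and 4.64 in WW. WL replicate 1 lay among the wild-type recipients and the other LysM-DTR recipients below them. The difference of -0.53 ± 0.2 (SE, adjusted p = 0.142) did not pass the test; its second probe differed by -0.44. In LL against WW it was -0.63 ± 0.28 (SE, adjusted p = 0.222), and with both WL arrays left out of the fit it was called, at an adjusted p of 0.0108.

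The chromosomal passenger complex corrects faulty attachments and later marks the division plane, and 3 of its 4 subunits rose. Cdca8, borealin, stood at 1.59 and 1.58 in LL and 0.87 and 1.45 in WL, against -0.23 and -0.51 in LW and -0.29 and -0.24 in WW. It rose by 1.69 ± 0.16 (SE, adjusted p = 0.0205). Birc5, survivin, which brings the complex to the centromere, was at 3.03 and 2.96 in LL and 2.4 and 3.0 in WL, against 1.54 and 1.05 in LW and 1.12 and 1.27 in WW. It rose by 1.6 ± 0.18 (SE, adjusted p = 0.0261). Aurkb, the Aurora B kinase of the complex, measured -2.04 and -2.03 in LL and -2.26 and -1.62 in WL, against -3.16 and -3.25 in LW and -3.22 and -3.27 in WW. It rose by 1.24 ± 0.16 (SE, adjusted p = 0.0324). Incenp, the scaffold, differed by 0.89 ± 0.15 (SE, adjusted p = 0.0562), with no overlap between the recipients.

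Of 7 centromere and kinetochore genes, 6 rose. The NDC80 complex, which grips microtubule ends, has 4 subunits, of which Nuf2, Spc24 and Spc25 rose and Ndc80 did not pass the test. Nuf2 read -1.16 and -1.29 in LL and -1.34 and -1.27 in WL, against -2.56 and -2.75 in LW and -2.84 and -2.69 in WW. The WL mice lay close together here, and the difference was 1.44 ± 0.1 (SE, adjusted p = 0.0182). Spc25 stood at 1.69 and 1.67 in LL and 1.51 and 1.75 in WL, against 0.59 and 0.25 in LW and 0.49 and 0.48 in WW. It rose by 1.2 ± 0.12 (SE, adjusted p = 0.0219). Ndc80, read by 1 probe, was at -0.67 and -0.99 in LL and -1.18 and -1.74 in WL, against -1.42 and -1.47 in LW and -1.74 and -1.14 in WW. The groups overlapped, with WL replicate 2 at the low end beside WW replicate 1, and the difference was 0.3 ± 0.2 (SE, adjusted p = 0.319). Spc24 stood at 1.26 and 1.22 in LL and -0.31 and 0.93 in WL, against -1.59 and -1.79 in LW and -1.6 and -1.53 in WW, and rose by 2.4 ± 0.27 (SE, adjusted p = 0.0258). Cenpf, a large kinetochore protein of G2 and mitosis, measured -0.17 and -0.01 in LL and -0.21 and -0.1 in WL, against -1.36 and -1.44 in LW and -1.02 and -1.3 in WW. It rose by 1.16 ± 0.11 (SE, adjusted p = 0.0211). Cenpe, a kinesin that carries chromosomes to the spindle equator, rose by 1.28 ± 0.13 (SE, adjusted p = 0.0221), and Cenpa, the histone H3 variant of centromeres, by 0.86 ± 0.11 (SE, adjusted p = 0.0349).

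Of 7 spindle motors and assembly factors, 6 rose (4 of 5 without Kif2c and Fam83d, which were dim on every LW and WW array), and Kif11 did not pass the test. Kif2c, a kinesin that takes microtubules apart, read -3.51 and -3.6 in LL and -3.59 and -3.54 in WL, against -6.07 and -5.5 in LW and -5.55 and -5.44 in WW. It was not well above background on any LW or WW array. The signal was thus at least 2.48-fold higher in LL than in WW (means -3.55 in LL and -5.49 in WW). In WL (mean -3.57) it was at least 2.45-fold higher. The recipient call for Kif2c (limma, adjusted p = 0.0181) rests on LW and WW values that were not well above background. Kif2c also passed the filter through LL and WL only, so the call is no separate support. Each bound sets the bright group's mean against the mean over the dim group's arrays of the lowest signal well above background, or the probe's own signal where that is higher. Fam83d, which places a casein kinase on the spindle, stood at -2.51 and -2.61 in LL and -3.98 and -3.0 in WL, against -5.79 and -4.92 in LW and -4.88 and -5.71 in WW. It too was dim on all LW and WW arrays. The bounds over WW were 4.93-fold for LL (means -2.56 in LL and -5.3 in WW) and 2.59-fold for WL (mean -3.49). The recipient call for Fam83d (limma, adjusted p = 0.0381) has the same limits as that for Kif2c. Kif4, a chromosome-bound kinesin, was at -2.37 and -2.36 in LL and -2.95 and -2.3 in WL, against -4.28 and -4.6 in LW and -4.19 and -4.2 in WW. It was well above background on 1 of the 2 LW arrays. The difference was 1.82 ± 0.17 (SE, adjusted p = 0.0205). Nusap1, which bundles spindle microtubules, measured -0.84 and -0.98 in LL and -1.15 and -0.99 in WL, against -2.2 and -2.49 in LW and -2.23 and -1.98 in WW. It rose by 1.23 ± 0.12 (SE, adjusted p = 0.0221). Tpx2, which activates Aurora A on the spindle, rose by 1.68 ± 0.17 (SE, adjusted p = 0.0221), and Aunip, which binds Aurora A, by 2.23 ± 0.32 (SE, adjusted p = 0.039). Kif11, the kinesin that pushes spindle poles apart, read -3.01 and -2.87 in LL and -2.82 and -2.98 in WL, against -3.17 and -4.38 in LW and -2.96 and -4.29 in WW. Replicate 2 of LW and of WW lay over 1 log2 unit below replicate 1, the groups overlapped, and the difference was 0.78 ± 0.37 (SE, adjusted p = 0.197).

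Of 7 genes of the central spindle and cytokinesis, 5 rose, and Anln and Kif23 did not pass the test. Prc1, which bundles antiparallel microtubules at the spindle midzone, stood at 1.46 and 1.19 in LL and 1.2 and 1.28 in WL, against -0.1 and -0.31 in LW and -0.08 and -0.26 in WW. The difference was 1.47 ± 0.12 (SE, adjusted p = 0.0205). Of its 5 kept probes, all were higher in LysM-DTR recipients, by 0.15 to 1.47. Ect2, which activates RhoA to form the contractile ring, was at -0.01 and -0.04 in LL and -1.12 and -0.12 in WL, against -2.4 and -2.54 in LW and -2.42 and -2.54 in WW. WL replicate 1 was the lowest LysM-DTR recipient but above all wild-type recipients, and the difference was 2.15 ± 0.22 (SE, adjusted p = 0.0221). Iqgap3, a scaffold of the actin cytoskeleton, measured -0.86 and -0.92 in LL and -1.66 and -1.01 in WL, against -2.95 and -2.87 in LW and -2.86 and -3.53 in WW. It rose by 1.94 ± 0.21 (SE, adjusted p = 0.0232). Kif20a, a kinesin of the midzone, rose by 1.59 ± 0.17 (SE, adjusted p = 0.0232), and Racgap1, the GTPase-activating partner of KIF23 in centralspindlin, by 0.81 ± 0.1 (SE, adjusted p = 0.0316). Anln, anillin, which organises the ring, read 1.5 and 1.07 in LL and 0.07 and 1.52 in WL, against -0.69 and -0.82 in LW and -0.68 and -1.05 in WW. The recipients did not overlap, but WL replicate 1 lay far below WL replicate 2, and the difference of 1.85 ± 0.33 (SE, adjusted p = 0.0603) did not pass the test.

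Kif23, the kinesin of centralspindlin, stood at -1.31 and -1.14 in LL and -1.22 and -1.64 in WL, against -1.58 and -1.4 in LW and -1.36 and -1.46 in WW. By this probe the groups overlapped and the difference was 0.12 ± 0.13 (SE, adjusted p = 0.537). Its other kept probes, above background on all 8 arrays, differed by 1.24 and 0.8. Of the 24 members with several kept probes, Bub1 and Ccnf were the 2 whose probes differed in sign, and Kif23 is reported by its brightest probe by the rule used for all genes.

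**Figure D3:**
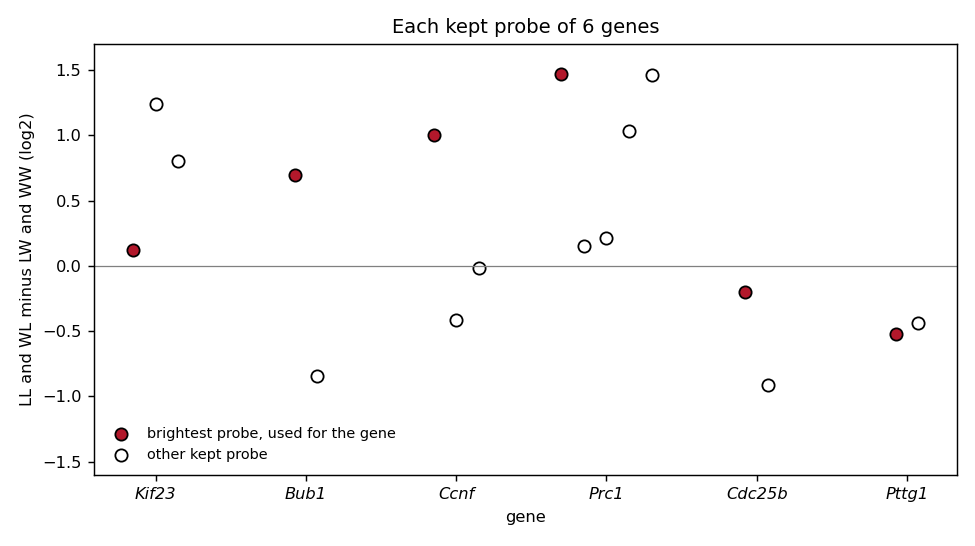
Recipient difference (log2, vertical axis) of each kept probe of 6 genes, with the brightest probe, used for the gene, filled. The other probes of Kif23 are at 1.24 and 0.8 while its brightest is at 0.12; the probes of Bub1 and Ccnf lie on both sides of 0, and both probes of Pttg1 lie below it.

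The remaining members all rose. Mki67, the Ki-67 protein of the mitotic chromosome surface, was at 2.33 and 2.47 in LL and 2.44 and 2.44 in WL, against 1.34 and 0.95 in LW and 1.22 and 1.23 in WW. Both WL mice were at the LL level, and the difference was 1.24 ± 0.12 (SE, adjusted p = 0.0211). Top2a, the topoisomerase that untangles chromosomes, measured 0.71 and 0.76 in LL and 0.4 and 1.01 in WL, against -0.79 and -1.17 in LW and -0.85 and -0.8 in WW. It rose by 1.62 ± 0.17 (SE, adjusted p = 0.0221). Foxm1, the transcription factor of late cell cycle genes, read -0.28 and -0.41 in LL and -0.62 and -0.26 in WL, against -1.6 and -1.68 in LW and -1.78 and -1.82 in WW. It rose by 1.33 ± 0.12 (SE, adjusted p = 0.0205). Cdca3, a trigger of mitotic entry, rose by 2.08 ± 0.22 (SE, adjusted p = 0.0221).

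**Figure D4:**
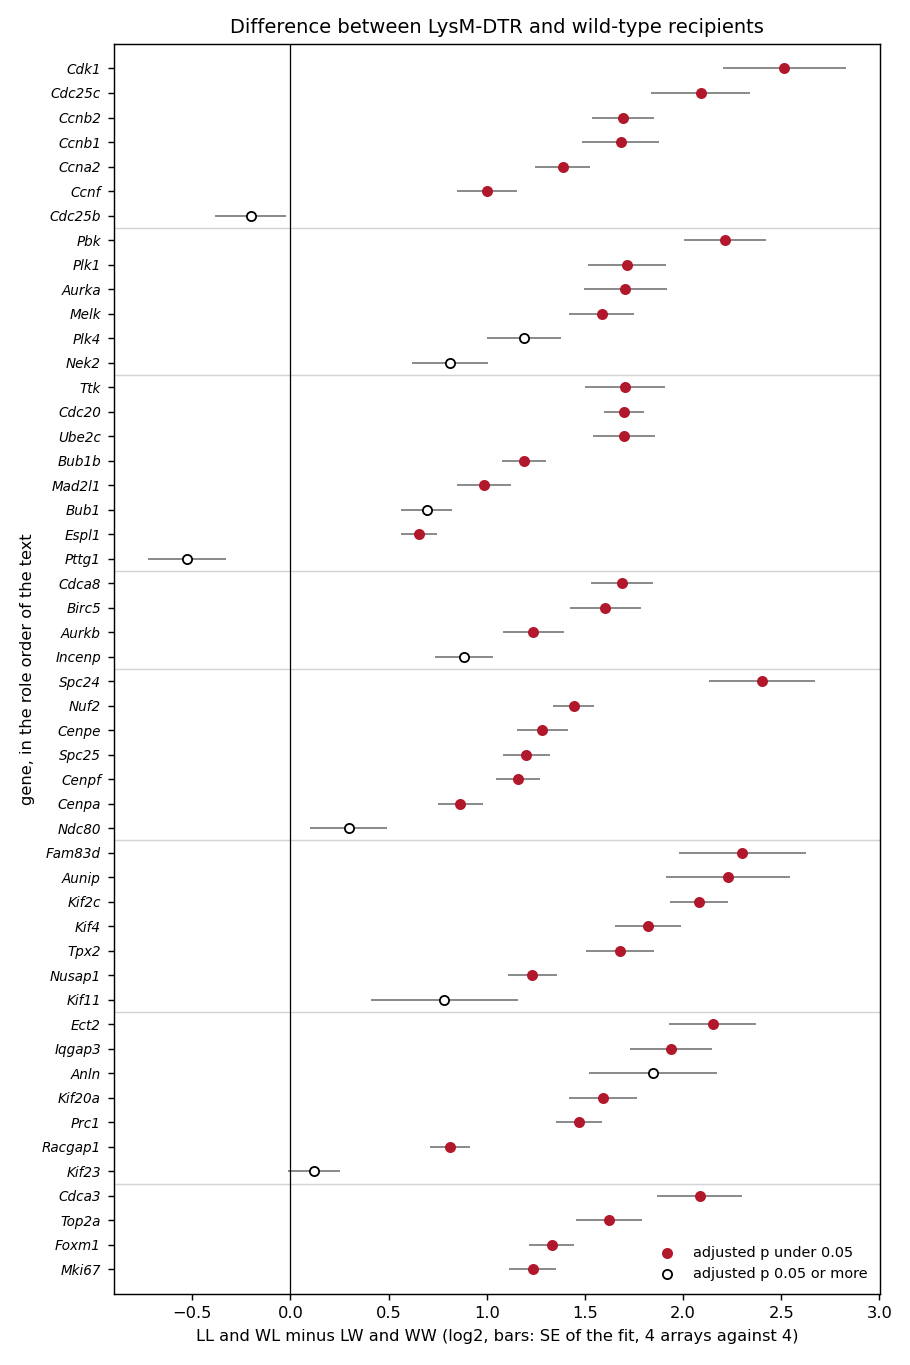
Recipient difference (log2, horizontal axis) of the 50 genes with the SE of the fit, 4 arrays against 4, in the order of the roles; filled points have an adjusted p under 0.05. The called genes run from 0.66 for Espl1 to 2.52 for Cdk1, and Cdc25b at -0.2 and Pttg1 at -0.53 are the points below 0.

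CHR matches were found among called and uncalled members alike. The 30 members with a CHR match had a median recipient difference of 1.66 and 24 were called, and the 11 without a match in the window had a median of 1.28 and 8 were called. Anln, Bub1, Cdc25b, Kif11, Kif23 and Ndc80, which were not called, held a CHR match. Nek2, Plk4 and Pttg1, also not called, held none in the window. Of the 9 members without a matched promoter, 8 were called, and their median was 1.59. No test was made of this.

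Genes with other parts in the cycle were read from lists. In the recipient comparison 0.627% of all 25830 genes were called higher, and 165 genes were called lower. At an unadjusted p under 0.05 by limma, 15.6% of all genes were higher. Of 45 other mitotic genes tested, 17 rose in LysM-DTR recipients and none fell, 37 were higher at an unadjusted p under 0.05, and the median was 1.08; Ckap2, a spindle protein, rose by 1.49 ± 0.14 (SE, adjusted p = 0.0205), Kif22, a chromosome-bound kinesin, by 1.14 ± 0.11 (SE, adjusted p = 0.0211), and Cenpk, a centromere protein, by 1.43 ± 0.15 (SE, adjusted p = 0.0232). Of 20 S phase genes, 4 rose, Uhrf1, Rrm2 and Mcm5 among them, 19 were higher at an unadjusted p under 0.05, and the median was 0.8; Rrm2, a subunit of the enzyme that makes deoxyribonucleotides, rose by 1.48 ± 0.19 (SE, adjusted p = 0.0323). Of 16 genes of the APC/C and of proteins that act with it or on it, 0 were called and the median was 0.23. At an unadjusted p under 0.05 by limma, 6 of the 16 were higher, where 15.6% of all genes were. Of 18 genes of DREAM, MuvB and the E2F family, E2f7, a repressor of the family, was the one called, at 1.51 ± 0.24 (SE, adjusted p = 0.0494), and the median was 0.18. For comparison the 10 housekeeping genes had a median of 0.26, with 0 called. Of these 10, 3 were higher at an unadjusted p under 0.05 by limma, where 15.6% of all genes were.

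Of 7 G1 cyclins and CDKs tested, 0 were called and 2 were higher at an unadjusted p under 0.05 by limma, where 15.6% of all genes were. They were Ccne1, cyclin E1, at 1.21 ± 0.23 (SE, adjusted p = 0.07) and Ccnd1, cyclin D1, at 0.61 ± 0.13 (SE, adjusted p = 0.0804). Ccnd2, Ccnd3, Cdk2, Cdk4 and Cdk6 lay between -0.19 and 0.33. Of 10 CDK inhibitors and inhibitory kinases, Cdkn3, a phosphatase that acts on CDKs, rose by 2.15 ± 0.21 (SE, adjusted p = 0.0219). Cdkn1a, the p21 inhibitor, stood at 4.17 and 4.52 in LL and 2.64 and 4.13 in WL, against 2.55 and 2.46 in LW and 2.85 and 2.6 in WW. It was high in LL and in WL replicate 2 and at the WW level in WL replicate 1, and the difference of 1.25 ± 0.33 (SE, adjusted p = 0.101) did not pass the test. Cdkn1b, the p27 inhibitor, was at 2.06 and 1.88 in LL and 2.65 and 1.7 in WL, against 2.79 and 2.88 in LW and 2.87 and 2.88 in WW. It was lowest in WL replicate 2, and the difference of -0.78 ± 0.21 (SE, adjusted p = 0.108) did not pass the test.

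Markers of lung cell types also differed between the groups, and the 2 WL mice differed from each other in several lists. In the monocyte and recruited macrophage list, 7 of 8 markers were called lower in LL against WW, where 1.92% of all genes were called lower, and the median against the WW mean was -4.55 and -4.82 in LL, but 0.62 and 0.82 in WL. The summed signal of that list, in multiples of the 75th percentile, was 294.0 to 352.0 in LL, 175.0 to 281.0 in WL, 151.0 to 157.0 in LW and 175.0 in WW; most of it was Ly6c1, which endothelial cells also express, and without Ly6c1 the sums were 10.2 to 12.6 in LL, 50.3 to 52.1 in WL, 34 to 41.9 in LW and 42.0 to 42.1 in WW. Ms4a7 and Cx3cr1 were each well above background on 1 of the 2 LL arrays. Of the alveolar type 2 markers, 1 of 8 (Lyz2) was called lower in LL against WW. Lyz2 is the lysozyme M gene, whose promoter is also active in myeloid cells, so its call is not specific to type 2 cells. At an unadjusted p under 0.05 by limma, 7 of the 8 were lower, where 3211 of all 25830 genes were. All 8 were called lower with both WL arrays left out of the fit, where 14.8% of all genes were. The sums of the type 2 markers were 304.0 to 367.0 in LL and 437.0 to 1410.0 in WL, against 1470.0 to 1650.0 in LW and 1610.0 to 1720.0 in WW. In WL replicate 1 the median of these markers was -0.17 from the WW mean, whereas in WL replicate 2 it was -1.94. The B cell list was at 0.1 in WL replicate 1 and -1.88 in replicate 2, with 0 of 5 called in LL against WW. Alveolar macrophage markers had 4 of 7 called lower there, with sums of 14.5 to 28.0 in LL and 26.7 to 55.8 in WL, against 37.6 to 42.2 in LW and 38.7 to 39.5 in WW. Of T cell markers 1 of 6 and of NK cell markers 1 of 5 were called lower. With both WL arrays left out, 14.8% of all genes were called lower and 17.3% higher. In that fit 4 of 6 T cell, 4 of 5 B cell and 4 of 5 NK cell markers were called lower. So were 3 of 4 club cell markers, and 5 of 6 alveolar type 1 markers were called higher. With all 8 arrays 0 of the alveolar type 1, club cell, neutrophil (7 tested) and endothelial (6 tested) markers were called by limma. At an unadjusted p under 0.05, 4 alveolar type 1 markers were higher in LL against WW, where 3191 of all 25830 genes were. Without the WL arrays 1 of 7 neutrophil and 1 of 6 endothelial markers were called in each direction. These counts were near the shares of all genes in that fit, 17.3% higher and 14.8% lower.

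In WL replicate 1, which is 1 mouse, monocyte, alveolar type 2 and lymphocyte markers were near or above their WW level. The median of the 50 genes against the WW mean was 1.15 there. In WL replicate 2 and LL the alveolar type 2 and lymphocyte markers were low. The median of the 50 was 1.59 in WL replicate 2, and 1.57 and 1.46 in LL. Of mesothelial markers, 2 of 4 were called higher in LL against WW, where 1.21% of all genes were. Without the WL arrays all 4 were, where 17.3% of all genes were. In WL replicate 1 these markers stayed at the WW level. The mesothelial sums were 75.8 to 77.1 in LL and 20.6 to 49.4 in WL, against 21.3 to 25.7 in LW and 20.7 to 22.8 in WW. Fibroblast markers had 0 of 5 called in LL against WW. Without the WL arrays 4 were called higher, where 17.3% of all genes were. The fibroblast sums were 104.0 to 116.0 in LL and 78.8 to 104.0 in WL, against 72.1 in LW and 56.0 to 67.7 in WW. Of the bone marrow markers, the early myeloid list had 0 of 3 called, with sums of 2.6 to 2.95 in LL and 2.34 to 2.42 in WL, against 2.44 to 2.45 in LW and 2.43 to 2.69 in WW, and Ctsg and Ms4a3 did not pass the filter; the erythroid sum was 1.81 to 9.53 in LL and 2.34 to 3.32 in WL, against 2.44 to 3.51 in LW and 3.81 to 4 in WW, with 0 of 4 called. The part of any of these cell types in the mitotic genes was not tested.

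**Figure D5:**
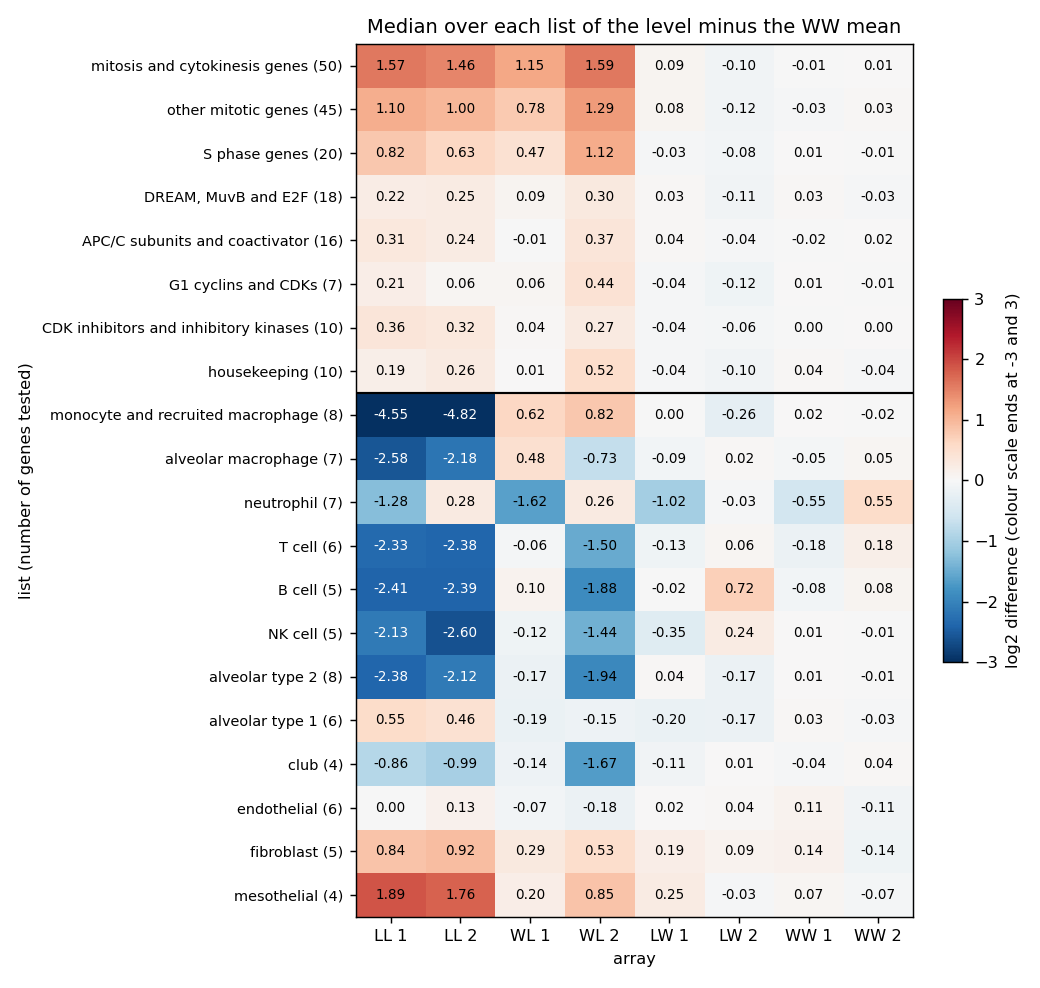
Median over each list (rows, with the number of genes tested) of the level minus the WW mean (colour and printed value, log2) on each of the 8 arrays (columns); the line divides cell cycle and housekeeping lists from cell type markers. The mitosis row is at 1.15 or more in LL and WL, while the alveolar type 2 row is at -0.17 in WL replicate 1 and at -1.94 or lower in WL replicate 2 and LL.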

How the data were processed

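Each deposited array file gives the intensity of 62976 spots, extracted with Agilent Feature Extraction 11.5.1.1 and, per the file headers, already background-subtracted. The deposited series table holds log2 values; compared with the array files, it is the log2 processed signal minus each array's 75th percentile. Replicate spots were averaged, taken to log2 and reduced by that percentile. Probes well above background on both arrays of a group were kept (39595 of 56605), and a gene took its brightest kept probe. Group means were fitted with limma 3.58.1 in R 4.3.3 (4 residual and 2.19 prior degrees of freedom).

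Members and lists were chosen with earlier results of these data known, so no list count is independent support. Members are described by role; values on every array are given for the 3 in each role with the smallest recipient p, Cdk1, Ccnb1, Top2a, Mki67, Foxm1, Plk1, and members at background, off the common direction or with probes of both signs. Those of Cdc25c, Spc24, Anln, Cdkn1a and Cdkn1b were added after they were seen. 1 S phase gene is not reported by name here. The labels do not say whether replicates came from separate experiments; each is a mouse. Arrays give no depth; their number, 2 per group, limits the precision. Same-numbered arrays were not shown to pair (correlations of deviations from -0.10 to 0.19). Alternatives changed the background correction, scaling, filter, probe rule, variance model and arrays used.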

Additional observations from a re-analysis of the deposited data

Results flagged for a closer look

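Of 8 markers of monocytes and recruited macrophages, 5 had a recipient difference that depended on the marrow, by limma's interaction test. Of all 25830 genes, 15 were called lower in that test. None of the 5 markers is among the 50 genes. The interaction (LL minus WL, less LW minus WW) was -6.01 for Cx3cr1 (adjusted p = 0.0412), -5.83 for C1qa (adjusted p = 0.0216), -4.44 for C1qb (adjusted p = 0.0348), -5.71 for C1qc (adjusted p = 0.0314) and -6.8 for Ms4a7 (adjusted p = 0.00892), on the log2 scale. Ms4a7 and Cx3cr1 were well above background on 1 of the 2 LL arrays each, so the size of their difference is uncertain. Ms4a7 stood at -5.05 and -4.80 in LL and 1.86 and 1.76 in WL, against 1.24 and 0.72 in LW and 1 and 0.83 in WW, so it was low in LL and highest in WL. C1qa stood at -3.70 and -3.97 in LL and 1.77 and 2.22 in WL, against 1.1 and 0.67 in LW and 0.99 and 0.79 in WW. Of the 50 mitotic genes, 0 were called in that test. It called 1 of all 25830 genes higher and 15 lower, so a count of 0 does not set the 50 apart from other genes. Their median interaction was 0.194 with all arrays, 0.389 without WL replicate 2 and -0.002 without WL replicate 1. Most of the 50 were high in both LL and WL.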

How the results depend on the processing

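With no filter on dim probes, 17 of the 50 genes were called in LL against WW and 25 in the recipient comparison. With a replicate block the counts were 19 and 26; the numbers were not shown to pair the mice. With normexp the medians were 0.93 in LL against WW, 0.85 in WL against WW and 0.88 in the recipient comparison. Under quantile normalization, a percentile over detected probes, averaged probes, the authors' log2 table, trended and robust variance, and normexp, the counts ran from 29 to 39 in LL against WW and 29 to 43 in the recipient comparison. Leaving out population outlier spots, chosen after seeing the data along with the other probes of a gene and the counts without Kif2c and Fam83d, gave 36 and 40. A fit without 1 array leaves a lone sample, assumed to vary like the other groups. The share of all genes called in such fits is not given here. Leaving out 1 array gave 0 to 44 calls in LL against WW, 0 to 45 in WL against WW, 0 to 15 in LL against WL, 0 to 46 in the recipient comparison and 0 to 5 in the interaction. The medians then ran from 1.15 to 1.59 in WL against WW, -0.048 to 0.312 in LL against WL, -0.10 to 0.09 in LW against WW and -0.002 to 0.389 in the interaction. A few differences changed sign. With the mean of a gene's probes, Bub1 was at -0.29 in LL against WW and -0.074 in the recipient comparison, and in WL against WW Cdc25b was at -0.32 and Kif23 at 0.46. With quantile normalization Ndc80 was at 0.039 and Kif23 at 0.042 in WL against WW. Leaving out 1 array, the differences in WL against WW that changed sign were -0.15 and -0.09 for Cdc25b, 0.26 and 0.28 for Ndc80 and 0.19 and 0.03 for Kif23 (over all such fits, -0.229 to 0.19). The cause of these changes was not tested. Signal close to background limits Ttk, Kif2c, Fam83d, Kif11 and Kif4, and in LL Ms4a7 and Cx3cr1.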
